A study of Mus musculus with 12 samples.

Results

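The AMPA, kainate and delta receptors are the ionotropic glutamate receptors other than the NMDA type, and 9 of their mouse subunit genes were followed in the adrenal gland: Gria1, Gria2, Gria3 and Gria4 (AMPA), Grik1, Grik2, Grik3 and Grik5 (kainate) and Grid1 (delta). The genes were chosen by symbol, through probe sets listed with a single gene, out of 16244 genes on the array with such a probe set. All 9 had exactly 1 probe set, and 8 of them were among the 15900 genes tested. Grik1 was left out of the tests because its mean log2 signal was under 6 in each of the 4 groups, the level under which the study's methods discard values.

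RNA came from whole adrenal glands of male C57Bl/6J mice aged 21 weeks, and 4 groups were compared. The ASP+CGP mice received aspartame, a sweetener, at 46 mg per kg body weight in the drinking water. They were also exposed through their mothers to CGP 39551, a competitive NMDA receptor antagonist. Its dose was set at 5 mg per kg of the mothers' body weight. The ASP mice received the same aspartame dose alone, the CGP mice were exposed to the antagonist alone, and the CON mice to neither. Aspartame began before birth through the mother and continued to the end of the study, whereas the antagonist ran from conception to postnatal day 28 and had ended long before the glands were taken. All mice of a group contributed equally to 1 RNA pool, which was hybridised to 3 Affymetrix Mouse Gene ST arrays, giving 12 in all. The p-values therefore reflect how far repeat arrays of a pool differ, and the variation between mice was not measured.

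Glutamate opens AMPA and kainate receptors, which are cation channels built of 4 subunits and carry most fast excitatory transmission in the brain. The Gria2 subunit, once its RNA has been edited, makes AMPA channels nearly impermeable to calcium, and auxiliary proteins such as stargazin bring the channels to the synapse and slow their closing. Kainate receptors act before and after the synapse to tune release and excitability, with Grik5 as a high-affinity partner that needs Grik1, Grik2 or Grik3 to reach the surface. The delta subunit Grid1 binds cerebellins, secreted proteins that bridge it to neurexins on the facing membrane, and glutamate is not known to open it as it opens the others. In the adrenal gland, chromaffin cells of the medulla release catecholamines and cortical cells make steroids.

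The promoters of some of these genes are shown first, as a description. RefSeq promoter windows (assembly GRCm38.p6) were matched for 5 of the 9 genes, namely Gria2, Gria4, Grik2, Grik3 and Grik5, and the 250 bases before each start were searched on both strands. The RE1 element is bound by REST, a repressor that keeps neuronal genes silent in other cells. One RE1-like stretch, written as AGCACC, any 2 bases, then GGACAGC, lay 171 to 157 bases before the Gria2 start on the opposite strand. This pattern was chosen after the Gria2 sequence had been read, and it was present in 9 of 32851 promoter windows of that length (0.0274%). The GC box GGGCGG, the core of the Sp1 site, occurred 6 times before Grik3, 1 of them on the opposite strand, and 2 times before Grik5, with no overlap between copies, and was absent from the other 3 windows. Of all windows, 32.7% held at least 1 GC box and 0.886% held 6 or more. None of the 5 windows held TATAAA (12.4% of all windows) or the cAMP response element TGACGTCA (1.55%). The windows of Gria2 and Grik3 are printed 5′ to 3′ in the direction of the gene, the first with its RE1-like stretch in capitals (chr3:80802836-80803085, minus strand) and the second with its GC boxes in capitals (chr4:125490446-125490695, plus strand). A match is a description of letters and not a bound site, and its part in the differences given below was not tested.
Gria2: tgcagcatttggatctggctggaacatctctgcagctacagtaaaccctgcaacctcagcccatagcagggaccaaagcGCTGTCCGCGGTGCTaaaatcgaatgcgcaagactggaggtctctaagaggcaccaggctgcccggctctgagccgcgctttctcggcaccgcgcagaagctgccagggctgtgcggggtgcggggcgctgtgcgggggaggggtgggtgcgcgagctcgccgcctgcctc
Grik3: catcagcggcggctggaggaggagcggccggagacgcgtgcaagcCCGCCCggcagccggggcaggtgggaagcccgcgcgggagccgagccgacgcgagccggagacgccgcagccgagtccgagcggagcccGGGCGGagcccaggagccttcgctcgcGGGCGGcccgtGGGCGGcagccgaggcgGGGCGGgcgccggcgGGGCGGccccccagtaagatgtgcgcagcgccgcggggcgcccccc

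Within a pool the arrays correlated at r between 0.989 and 0.995 across probe sets, and the array medians lay between 7.84 and 7.94. The ASP+CGP arrays stood apart in their spread of signals, with interquartile ranges of 2.20 to 2.29 against 2.58 to 2.62 on the CON arrays. Genes that were dim in CON had a median difference above 0 on the ASP+CGP arrays and bright genes one below 0, and the median of all genes in the same class of CON signal is given below beside the smaller ASP+CGP differences. Markers of adrenal cortex averaged between 12.01 and 12.36 on all 12 arrays and chromaffin markers between 10.70 and 11.21, so the labelled tissue was present in every pool. Values are log2 signals, in which a step of 1 is a doubling. The level of one gene's probe set cannot be set against that of another.

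The first question was how the pool with aspartame alone differed from the control pool in these receptor genes. In the ASP pool 7 of the 8 tested genes were called higher and none was called lower (limma adjusted p under 0.05 and a change of at least 1.4-fold). Of all 15900 genes, 9.81% were called higher and 8.13% lower in this comparison. The median difference of the 8 genes was 1.39 on the log2 scale, beside -0.10 for all genes tested. The rise reached all 3 families, from 1.57-fold for Grik5 to at least 16.3-fold for Gria1, and Gria3 was the only tested gene that did not rise. Of the 8 genes, 7 had all ASP arrays above all CON arrays and 1 had them all below, as had 20.6% and 43% of all genes.

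Gria1, a subunit added to synapses during long-term potentiation, gave the largest rise among these genes (probe set 10376245, Entrez 14799). It read 5.89, 6.05 and 6.18 in ASP+CGP, 9.95, 10.01 and 10.12 in ASP, 5.85, 6.11 and 5.97 in CGP, and 5.85, 5.69 and 6.12 in CON. The ASP arrays stood far above the other 9, which overlapped one another around the level of 6. The difference between ASP and CON was 4.14 ± 0.10 (SE, n = 3 arrays, limma adjusted p = 1.71e-13). Its CON mean was 5.89, under the level of 6, so the change is given as at least 16.3-fold (17.6-fold as measured).

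Gria2, the subunit that limits calcium entry (probe set 10498885, Entrez 14800), read 6.88, 7.01 and 6.85 in ASP+CGP, 8.4, 8.53 and 8.37 in ASP, 7.15, 7.12 and 7.01 in CGP, and 7.20, 7.36 and 7.36 in CON. It was 2.19-fold higher in ASP than in CON (log2 difference 1.13 ± 0.07, adjusted p = 4.3e-09). The 95% interval of this difference, 0.98 to 1.28, lay below that of Gria1, 3.92 to 4.36, so the measured differences of these AMPA probe sets were unlike in size. Whether the probe sets respond alike to the same change in RNA was not tested. Gria2 is the gene whose promoter holds the RE1-like stretch printed above.

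Gria4, a subunit with fast kinetics that is prominent early in brain development (probe set 10590663, Entrez 14802), read 6.32, 5.97 and 6.37 in ASP+CGP, 7.47, 7.68 and 7.52 in ASP, 6.22, 6.30 and 6.31 in CGP, and 6.35, 6.25 and 6.30 in CON. The ASP arrays were again the only ones apart from the rest, 2.39-fold above CON (log2 difference 1.26 ± 0.09, adjusted p = 2.14e-08). Its interval, 1.06 to 1.45, overlapped that of Gria2.

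Gria3, the X-linked AMPA subunit (probe set 10599348, Entrez 53623), ran the other way. It read 8.45, 8.63 and 8.46 in ASP+CGP, 8.69, 8.90 and 8.68 in ASP, 9.11, 9.14 and 8.98 in CGP, and 9.15, 9.20 and 9.20 in CON. All ASP arrays lay below all CON arrays, by a log2 difference of -0.42 ± 0.07 (limma adjusted p = 0.000179), which is 0.745 of the CON level and short of the 1.4-fold minimum. Without the second ASP array, the highest of the 3, the difference was -0.50 (adjusted p = 6.95e-05) and the gene was called lower, whereas after cyclic loess, a scaling that removes trends with signal, it was -0.25 (adjusted p = 0.00218). Genes of similar brightness in CON (log2 signal 9 to 10) had a median difference of -0.19 in the same comparison. The intervals of the other 3 AMPA genes lay wholly above 0, and that of Gria3, -0.58 to -0.27, wholly below it.

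**Figure D1:**
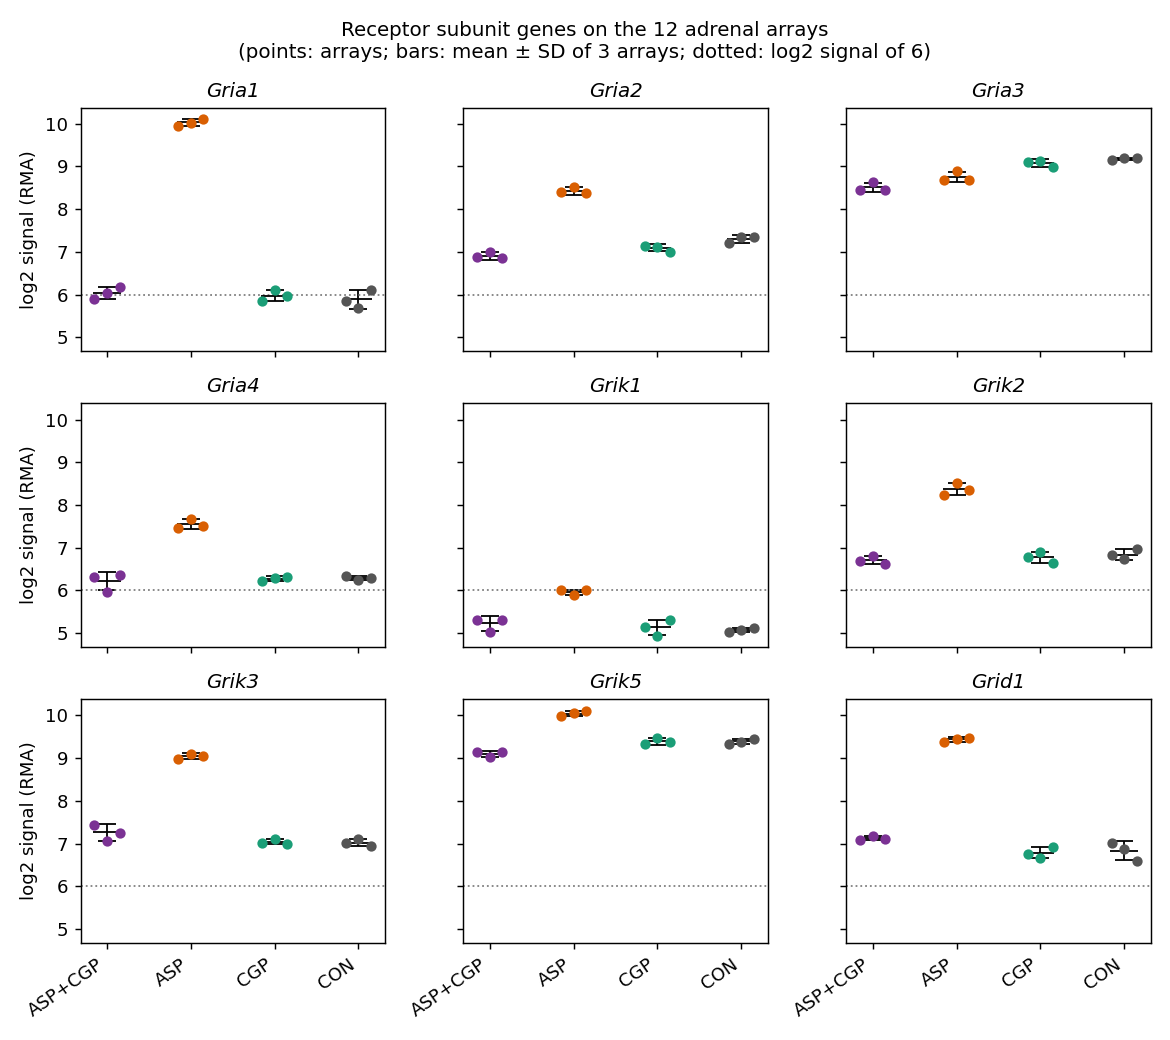
Log2 signal of the 9 receptor subunit genes on each of the 12 arrays, 1 panel per gene, for the ASP+CGP, ASP, CGP and CON pools from left to right. Points are arrays, bars are the mean ± SD of 3 arrays, and the dotted line is a log2 signal of 6; in 8 panels the ASP points stand above all others, and in the Gria3 panel the ASP+CGP and ASP points lie below the CGP and CON points.

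Among the kainate receptor genes, all 3 that were tested rose in ASP. Grik3, a low-affinity subunit (probe set 10508052, Entrez 14807), read 7.44, 7.07 and 7.25 in ASP+CGP, 8.98, 9.10 and 9.05 in ASP, 7.01, 7.11 and 7.0 in CGP, and 7.02, 7.10 and 6.94 in CON. It had the largest kainate change, 4.07-fold above CON (log2 difference 2.03 ± 0.08, adjusted p = 2.5e-11). Its promoter is the one with 6 GC boxes.

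Grik2, the subunit of most native kainate receptors in brain (probe set 10368999, Entrez 14806), read 6.69, 6.81 and 6.63 in ASP+CGP, 8.24, 8.51 and 8.35 in ASP, 6.79, 6.91 and 6.64 in CGP, and 6.83, 6.73 and 6.96 in CON. The other 9 arrays overlapped, and ASP was 2.87-fold above CON (log2 difference 1.52 ± 0.09, adjusted p = 1.58e-09).

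Grik5, the high-affinity partner subunit (probe set 10560945, Entrez 14809), read 9.13, 9.02 and 9.14 in ASP+CGP, 9.99, 10.05 and 10.09 in ASP, 9.33, 9.48 and 9.37 in CGP, and 9.34, 9.38 and 9.45 in CON. It was already well above the level of 6 in CON and rose by the smallest factor of the 7 called genes, 1.57-fold (log2 difference 0.65 ± 0.06, adjusted p = 4.23e-07). Its interval, 0.52 to 0.78, did not reach that of Grik2, 1.33 to 1.71, or of Grik3, 1.85 to 2.20.

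Grik1, which forms kainate receptors on many interneurons (probe set 10440621, Entrez 14805), stayed dim throughout. It read 5.32, 5.03 and 5.32 in ASP+CGP, 6.00, 5.89 and 6.00 in ASP, 5.15, 4.94 and 5.31 in CGP, and 5.03, 5.07 and 5.12 in CON. The ASP arrays were above all others, but the ASP mean of 5.96 was itself under 6 and no fold is given. With no filter on dim genes, the log2 difference between ASP and CON was 0.89 ± 0.09 (limma adjusted p = 1.61e-06 over 16244 genes).

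Grid1, the delta subunit (probe set 10414137, Entrez 14803), showed the largest rise after Gria1. It read 7.08, 7.17 and 7.10 in ASP+CGP, 9.37, 9.45 and 9.48 in ASP, 6.76, 6.66 and 6.91 in CGP, and 7.02, 6.87 and 6.60 in CON. The ASP arrays were 6.1-fold above CON (log2 difference 2.61 ± 0.09, adjusted p = 5.65e-12). The ASP+CGP arrays lay a little above the CGP and CON arrays, without overlap. Of all genes, 23.1% had ASP+CGP arrays wholly above CGP and 22.8% wholly above CON.

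The second question was how the pool with the antagonist alone differed from the control pool, months after the antagonist had been withdrawn. In CGP against CON none of the 8 genes was called in either direction by limma, and 1 had an unadjusted p under 0.05. Of all genes, 1.62% were called higher and 0.0189% lower. That single gene was Gria2, at a log2 difference of -0.21 ± 0.07 (adjusted p = 0.216), with all 3 CGP arrays below the CON arrays. The CGP arrays of Gria3 were also all below CON, by -0.10 ± 0.07 (adjusted p = 0.781). Of all genes, 6.35% had all CGP arrays below all CON arrays and 10.1% had them all above. For Gria1, the interval of the difference ran from -0.13 to 0.31, and for Grid1 from -0.25 to 0.15, so changes of the size seen in ASP lay outside both.

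The third question was how the glands of mice with both exposures compared with controls. In ASP+CGP against CON none of the 8 genes was called higher and 1, Gria3, was called lower. Of all genes, 6.09% were called higher and 8.32% lower. The median difference of the 8 genes was -0.11, beside -0.17 for all genes. Gria3 was at 0.628 of the CON level (log2 difference -0.67 ± 0.07, adjusted p = 9.51e-06). Genes whose CON signal was also 9 to 10 had a median difference of -0.34 and 16.2% of them were called lower. After cyclic loess the Gria3 difference was -0.39 (adjusted p = 0.000284) and under the 1.4-fold minimum.

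Several smaller differences passed the adjusted p but not the fold minimum. Grid1 was higher in ASP+CGP than in CON by 0.29 ± 0.09 (adjusted p = 0.012), and genes with a CON signal of 6 to 7, like Grid1, had a median of 0.25. Grik3 was higher by 0.24 ± 0.08 (adjusted p = 0.0184), where genes of its class, 7 to 8, had a median of -0.06. Gria2 was lower by a log2 difference of -0.39 ± 0.07 (adjusted p = 0.000282) in that same class. Grik5 was lower by -0.29 ± 0.06 (adjusted p = 0.000744), in the same signal class as Gria3, and its difference after cyclic loess was 0.03, of opposite sign. For Gria1 the interval was -0.07 to 0.38, for Gria4 -0.27 to 0.11 and for Grik2 -0.32 to 0.05.

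**Figure D2:**
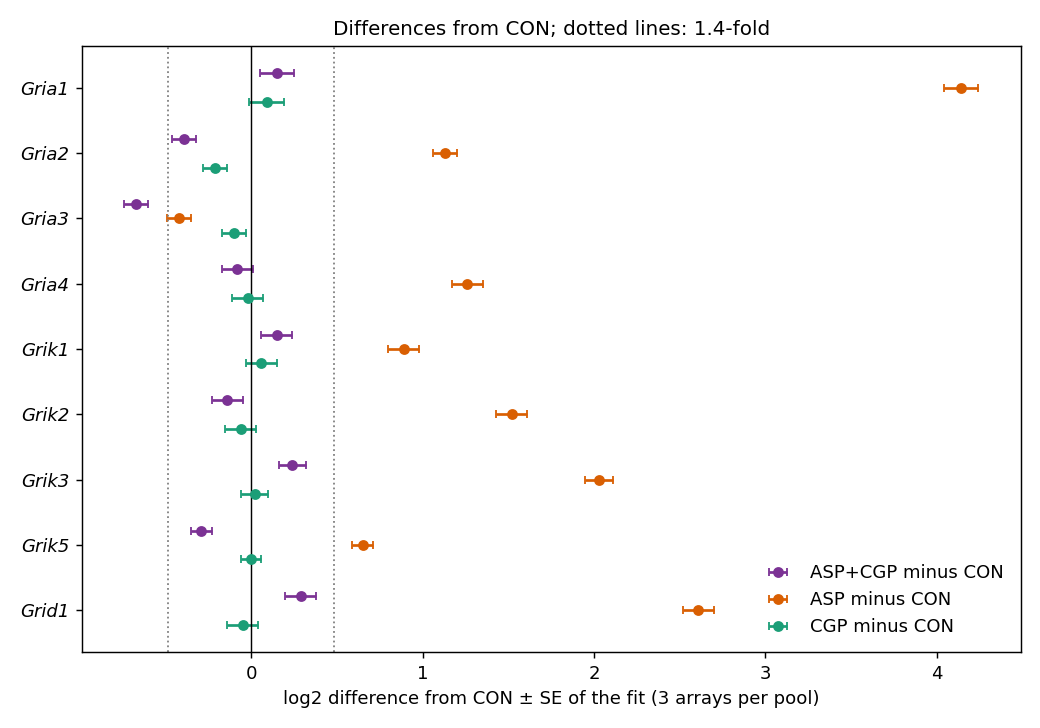
Log2 difference from CON for each receptor subunit gene in the ASP+CGP, ASP and CGP pools, with points at the difference and bars of ± 1 SE of the limma fit (3 arrays per pool); dotted lines mark 1.4-fold in either direction. The ASP points run from 4.14 for Gria1 to -0.42 for Gria3, while the ASP+CGP and CGP points lie between -0.67 and 0.29.

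The fourth question was whether the combined exposure differed from aspartame alone. In ASP+CGP against ASP, 7 of the 8 genes were called lower and none was called higher, where 13.3% of all genes were called lower and 6.55% higher. Gria1 was lower by a log2 difference of -3.99 ± 0.10 (adjusted p = 2.43e-13), at 0.0631 of the ASP level. Grid1 was at 0.2, Grik3 at 0.289, Grik2 at 0.317, Gria2 at 0.349, Gria4 at 0.396 and Grik5 at 0.519 of their ASP levels. Gria3 differed by -0.25 ± 0.07 (adjusted p = 0.0094), short of the fold minimum, where genes of its signal class had a median of -0.14. After cyclic loess that difference was -0.13 and no longer passed (adjusted p = 0.0603). All 8 genes had ASP+CGP arrays wholly below ASP arrays, as did 34.6% of all genes.

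Among antagonist-exposed mice, the aspartame comparison is ASP+CGP against CGP. None of the 8 genes was called higher and 1 was called lower, where 8.57% of all genes were called higher and 11% lower. The gene was again Gria3, at a log2 difference of -0.57 ± 0.07 (adjusted p = 1.77e-05). Genes of its brightness had a median of -0.35, and its difference after cyclic loess was -0.27, not called. For Gria1 the difference was 0.06 with an interval of -0.16 to 0.29, against 4.14 for ASP over CON.

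Whether these aspartame differences were unlike was tested as an interaction, the aspartame difference with the antagonist minus that without it. It was called lower than 0 for 7 of the 8 genes and higher for none, where 15.5% of all genes were called lower and 9.02% higher. The interaction was -4.08 ± 0.15 for Gria1 (adjusted p = 2.57e-11) and -2.27 ± 0.13 for Grid1 (adjusted p = 3.37e-09). The CGP and CON means of Gria1 were both under 6, and with these set to 6 its interaction was -3.99. For Gria3 it was -0.15 ± 0.10 (adjusted p = 0.253), with an interval of -0.37 to 0.08, and genes of its signal class had a median of -0.17. The aspartame difference of Gria3 was thus negative with and without the antagonist, and no difference between them was detected.

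**Figure D3:**
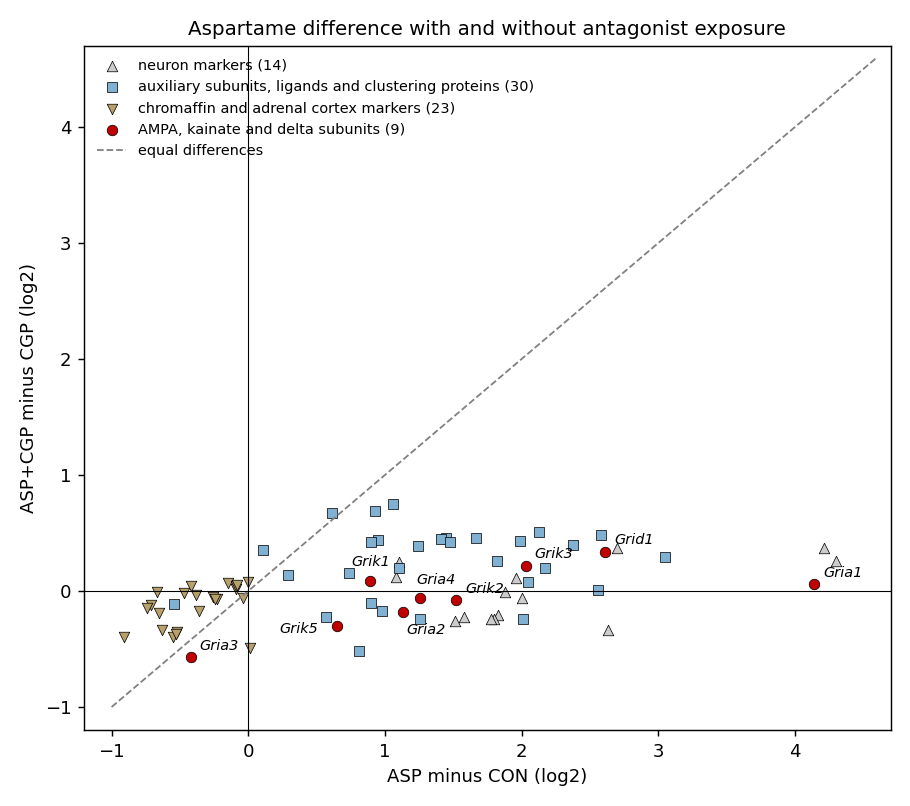
Aspartame difference without the antagonist (x axis, ASP minus CON, log2) against that with it (y axis, ASP+CGP minus CGP, log2), for the receptor subunits, their auxiliary proteins, ligands and clustering proteins, and neuron and adrenal markers. On the dashed line both differences are equal; Gria1 lies at 4.14 and 0.06, far below it, and Gria3 at -0.42 and -0.57, close to it.

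The order of the groups for each gene follows from these values. For Gria1, Gria4 and Grik2 the ASP pool stood alone at the top and the neighbouring ASP+CGP, CGP and CON pools did not differ beyond their spread. For Gria2 the order from high to low was ASP, CON, CGP and ASP+CGP, with mean log2 signals of 8.43, 7.30, 7.10 and 6.91, and the CGP and CON pools did not pass the test. For Grik3 it was ASP (9.05), ASP+CGP (7.26), CGP (7.04) and CON (7.02), and for Grid1 ASP (9.44), ASP+CGP (7.12), CON (6.83) and CGP (6.78), where only the last neighbours of each did not pass the adjusted p. For Grik5 ASP (10.04) came above CGP and CON, which shared a mean of 9.39, and ASP+CGP (9.10) was lowest. For Gria3 the order was CON, CGP, ASP and ASP+CGP at 9.18, 9.08, 8.76 and 8.51, where CON and CGP did not pass the adjusted p as neighbours, nor did ASP and ASP+CGP after cyclic loess. Gria3 was the one gene of the 9 in which the highest pool was CON.

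Other ionotropic subunits rose with these genes in ASP. Of 7 tested genes of this kind 5 were called higher and none lower, with a median of 1.26, beside 9.81% and 8.13% of all genes. They were Grin2b, an NMDA receptor subunit with the glutamate site at which CGP 39551 competes (at least 5.39-fold, since its CON mean was 5.95), Grin3a (3.55-fold), Grin2a (3.31-fold), Grin2d (2.4-fold) and the kainate subunit gene Grik4 (1.6-fold). In ASP+CGP against CON 1 of the 7 was called higher, Grin3b at 0.54 ± 0.09 (adjusted p = 0.000112), beside 6.09% of all genes. Genes of its CON signal had a median of 0.25, and the call was lost after cyclic loess.

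The proteins that travel with AMPA receptors showed the same direction. Of 16 tested AMPA auxiliary genes 14 were higher in ASP than in CON and 1 was lower (median 1.26), beside 9.81% and 8.13% of all genes. In ASP+CGP against CON 1 was higher and 1 lower, beside 6.09% and 8.32% of all genes. Those genes, Cacng5 and Cacng3, lost their calls after cyclic loess, when 3 were higher and 0 lower. Frrs1l, which acts in AMPA receptor assembly, was 5.99-fold higher in ASP, at mean log2 signals of 9.36 in ASP and 6.78 in CON. Cnih2, a cornichon that helps AMPA receptors leave the endoplasmic reticulum, was 5.9-fold higher, Cacng2, which encodes stargazin, 3.99-fold and its relative Cacng3 4.03-fold. Shisa6, another AMPA-associated membrane protein, was at least 2.01-fold higher, with a CON mean of 5.19. Its mean was under 6 in every pool but ASP, so it was tested only because of its ASP signal. The exception was Gsg1l, an auxiliary subunit that dampens AMPA currents, at -0.54 ± 0.07 (adjusted p = 1.5e-05), a gene singled out after its values were seen. After cyclic loess Gsg1l was no longer called.

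Kainate auxiliary genes and ligands and the cerebellins followed, with exceptions, where 9.81% of all genes were called higher in ASP than in CON. All 4 tested kainate partners were higher in ASP, led by Neto1, an auxiliary subunit that slows kainate receptor gating (at least 4.98-fold, with means of 8.32 in ASP and 5.27 in CON). Its relative Neto2 was 1.75-fold higher. Of the secreted C1q-like proteins, which recruit kainate receptors, C1ql3 was at least 1.68-fold and C1ql2 1.53-fold higher. Neto1 and C1ql3 had means under 6 in every pool but ASP, so they were among the 4 tested only because of their ASP signal. Of the 4 cerebellins, the partners of the delta receptor, 3 were higher, namely Cbln1 (at least 4.26-fold), Cbln2 (at least 2.08-fold) and Cbln4 (2.09-fold), while Cbln3 differed by 0.11 (adjusted p = 0.361).

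Some of these secreted partners were also called higher in ASP+CGP than in CON, beside 6.09% of all genes. C1ql2 was 1.48-fold, Cbln4 1.56-fold and Nptx2 1.47-fold above CON in ASP+CGP. Nptx2 encodes a secreted pentraxin that clusters AMPA receptors. The interaction did not pass for any of these 3 genes, at 0.06 for C1ql2 (adjusted p = 0.777), -0.31 for Cbln4 (adjusted p = 0.0699) and -0.25 for Nptx2 (adjusted p = 0.177). C1ql3 was called higher too, by 0.49 ± 0.07 (adjusted p = 8.62e-05), with means of 5.78 in ASP+CGP and 5.30 in CON that are both under 6, but its interaction passed at -0.99 (adjusted p = 3.09e-06) and its call in ASP+CGP was lost after cyclic loess. The first 3 were grouped after their values were seen. Their CON means of 7.09, 6.41 and 7.02 lie in the classes of 7 to 8 and 6 to 7. In ASP+CGP against CON all genes of these classes had medians of -0.06 and 0.25, and 7.7% and 14.7% were called higher.

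Postsynaptic scaffolds changed less uniformly. Of 17 tested scaffold and trafficking genes 5 were higher in ASP than in CON, beside 9.81% of all genes. The other 12 were not called, and the median was 0.31. Those called were Shank1 (5.12-fold) and Dlg4 (2.96-fold), core proteins of the postsynaptic density, Nsf (1.78-fold), which drives membrane fusion and binds Gria2, and the scaffold-linking Dlgap3 (1.68-fold) and Dlgap2 (1.62-fold). All 6 tested clustering genes were higher in ASP, with a median of 1.65, among them the synaptic adhesion genes Lrrtm1 (4.52-fold), Lrrtm2 (at least 4.07-fold), Lrrtm3 (4.14-fold) and Lrrtm4 (2.39-fold). Nptx2 was 1.91-fold higher.

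The 2 tested enzymes that edit receptor RNA differed from each other in ASP. Adarb1, which edits the calcium-controlling site of Gria2 RNA, had mean log2 signals of 9.97 in ASP and 10.03 in CON, a difference of -0.06 ± 0.07 (adjusted p = 0.481). It was lower in ASP+CGP than in CON, by -0.77 ± 0.07 (adjusted p = 1.46e-06), where genes of its signal class had a median of -0.33, and that call was lost after cyclic loess. Adar was 1.5-fold higher in ASP than in CON (log2 difference 0.59 ± 0.06, adjusted p = 2.24e-06) and at 0.542 of the ASP level in ASP+CGP, values near those of Grik5. The interaction was called lower for both enzymes, beside 15.5% of all genes. It was called lower for only 1 after cyclic loess, where Adarb1 lost its call, and for only 1 with arrays centred on their medians. The arrays measure levels of RNA, and the editing itself was not measured.

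Markers of brain cell types moved together with the receptor genes. In ASP against CON 14 of 14 neuron markers were called higher (median 1.85), beside 9.81% of all genes. So were 11 of 11 oligodendrocyte markers (median 2.08) and 9 of 10 astrocyte markers (median 2.18). The mean neuron marker signal was 8.08 to 8.14 on the ASP+CGP arrays, 10.24 to 10.29 on the ASP arrays, 8.10 to 8.12 on the CGP arrays and 8.06 to 8.12 on the CON arrays. Among the defining markers, the neuronal genes Camk2a and Nefl rose 19.8-fold and 18.5-fold, the myelin gene Mobp 17.8-fold and the astrocyte glutamate transporter gene Slc1a2 12.4-fold. The oligodendrocyte markers averaged 7.0 to 7.08 on ASP+CGP, 9.14 to 9.30 on ASP, 6.77 to 6.90 on CGP and 6.79 to 6.81 on CON arrays, and the astrocyte markers 7.65 to 7.70, 9.65 to 9.77, 7.77 to 7.85 and 7.68 to 7.75 in the same order of pools. In ASP+CGP against CON 2 of 14 neuron, 0 of 11 oligodendrocyte and 0 of 10 astrocyte markers were called higher, beside 6.09% of all genes. With arrays centred on their medians 2, 4 and 1 were higher, and after cyclic loess 2, 1 and 0. The astrocyte marker Aldh1l1 was called lower, beside 8.32% of all genes, and lost that call after cyclic loess. In CON 1 of 14 neuron, 3 of 11 oligodendrocyte and 2 of 10 astrocyte markers had a mean under 6. Nefm, Opalin, Ermn and Gjb6 had a mean of at least 6 in ASP only. They were thus tested, and entered the counts above, only because of their ASP signal. The part of these cell types in the receptor differences was not tested. The study also prepared hypothalamic RNA from its mice, and whether RNA of another tissue was present in the ASP pool was not tested either. In RNA of a whole gland, more cells of a type and more RNA per cell cannot be told apart.

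Markers of the gland's own cells went the other way or stood still. In ASP against CON none of 11 chromaffin markers was higher and 4 were lower (median -0.42). None of 12 cortex markers was higher and 5 were lower (median -0.25), beside 9.81% of all genes higher and 8.13% lower. After cyclic loess 3 chromaffin and 2 cortex markers were lower. Gata3, a chromaffin transcription factor, was at 0.533 and Cyp11b2, the aldosterone synthase gene, at 0.629 of the CON level. None of 3 Schwann cell markers was called. Of 9 hepatocyte markers 9 were lower in ASP+CGP than in CON, beside 8.32% of all genes, and 7 were lower in ASP. In CGP 6 of the 9 were higher than in CON, beside 1.62% of all genes. The hepatocyte list was highest in CGP, whereas Gria3 was highest in CON. On average, the hepatocyte, chromaffin and cortex lists were, like Gria3, lower in both aspartame pools than in CON. The hepatocyte list, like Gria3, was lowest in ASP+CGP, and the chromaffin and cortex lists were lowest in ASP. The part of these lists in the Gria3 difference was not tested.

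**Figure D4:**
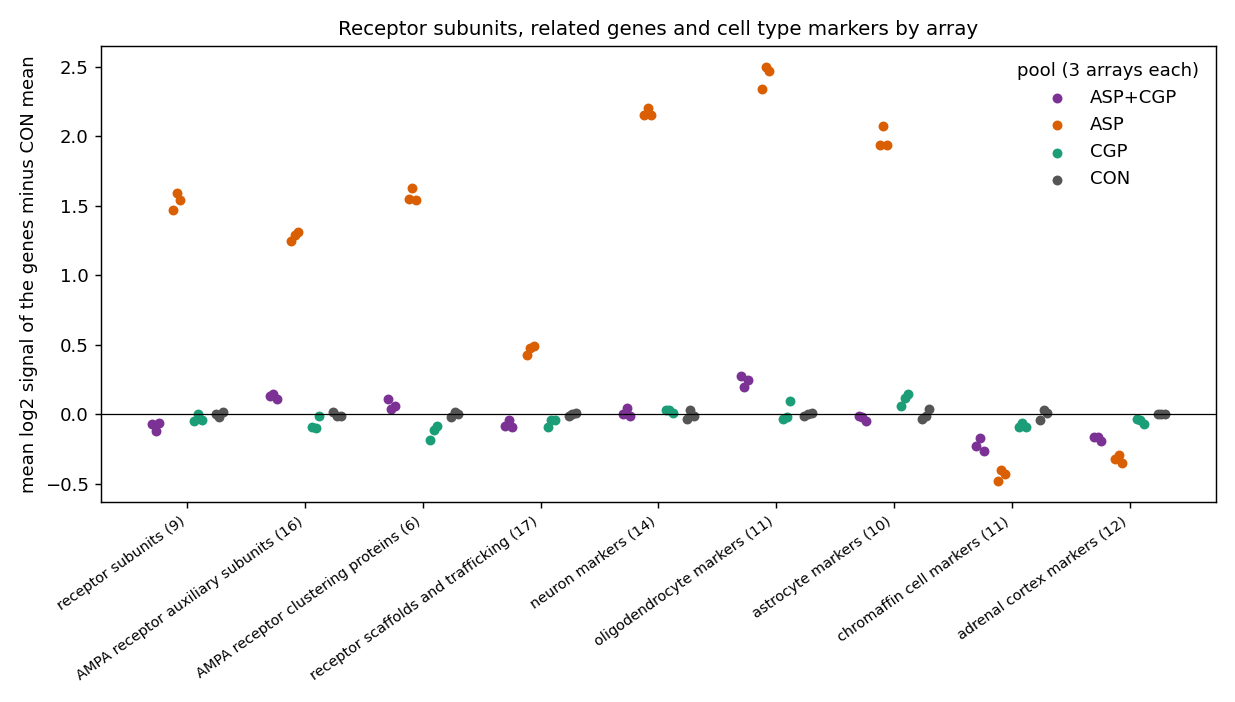
Mean log2 signal of the genes of each list on each array, minus the CON mean, with the ASP+CGP, ASP, CGP and CON arrays from left to right within a list and the number of genes in brackets; points are arrays. The ASP arrays stand at 1.47 to 1.59 for the receptor subunits and 2.15 to 2.20 for the neuron markers, and below CON for the chromaffin and adrenal cortex markers.

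The genes most like each subunit over the 12 arrays were also sought, as a description. Gria1 was closest to Gpm6b, a neuronal and glial membrane glycoprotein (r = 0.999), Grin3a and Cntnap2 (r = 0.998 each), and Gria2 to Cacng3 (r = 0.997). Grid1 was closest to the metabotropic receptor gene Grm5 (r = 0.998), Sv2b and Mlc1, and Grik3 to Tnfrsf21 (r = 0.998), Arpp21 and Bcas1. Grik2 was closest to Slc4a10 (r = 0.997), Grik5 to Zwint (r = 0.992) and Gria4 to Ak5 (r = 0.992). The 12 arrays come from 4 pools, and such values rest mostly on the ASP pool. Gria1 and Gria2 correlated at r = 0.955 over all 12 arrays and at -0.372 over the 9 arrays left without ASP. Gria2 and Gria3, at -0.032 over the 12, reached 0.889 over those 9, and Gria3 and Grik5 went to 0.891, all 3 genes being lowest in ASP+CGP there.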

How the data were processed

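Signals deposited by the authors are on a log2 scale, 1 value per probe set and array, from Partek and RMA, with background correction, quantile normalization and median polish. No genome build is given in the sources used here. Of 26533 probe sets 17710 carry 1 gene symbol, 1077 several and 7746 none. A gene was represented by the brightest of its single-gene probe sets, and 344 genes under a mean of 6 throughout were left out. A mean per group was fitted to 12 arrays with limma 3.58.1 in R 4.3.3 (data.table, version 1.17.8), with empirical Bayes moderation and Benjamini-Hochberg adjustment over 15900 genes. Calls needed an adjusted p under 0.05 and 1.4-fold. Where a CON mean was under 6 it was set to 6 for the fold. The steps were tested on simulated data. Precision is limited by the number of arrays, which have no counting depth.

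The members and gene lists were chosen with earlier results of these data known. Named genes are all members, up to 5 per list with the largest ASP difference, and for each member the 3 most correlated genes. Not all of these are printed. Alternatives were other filters, scalings, moderation, weights, fold minimums and probe set choices, the replicate number as a block, and leaving out each array.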

Additional observations from a re-analysis of the deposited data

Results flagged for a closer look

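For 7 of the 8 tested receptor genes the aspartame difference itself differed between mice with and without antagonist exposure (limma interaction, adjusted over 15900 genes, 1 pool per group). The aspartame difference with the antagonist minus that without it was -4.08 ± 0.15 SE for Gria1 (adjusted p = 2.57e-11; -3.99 with CGP and CON means under 6 set to 6), -2.27 ± 0.13 for Grid1 (3.37e-09) and -1.81 ± 0.12 for Grik3 (1.07e-08). It was -1.60 ± 0.12 for Grik2 (adjusted p = 8.41e-08), -1.31 ± 0.10 for Gria2 (6.89e-08), -1.31 ± 0.13 for Gria4 (1.01e-06) and -0.95 ± 0.09 for Grik5 (4.7e-07). Of all genes, 15.5% were called lower in the same test, and the 14 tested neuron markers all were. Of these markers, Nefm was tested only because of its ASP signal. The groups of 3 arrays are too small for a test of outlying arrays.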

How the results depend on the processing

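Of 1144 values of single genes under alternative settings, 1128 kept their call, 5 lost it, 11 gained it and none of those called changed sign. The receptor genes had 1 single-gene probe set each, so a different choice among such probe sets left their signals unchanged. The 7 genes called higher in ASP than in CON, the 7 called lower in ASP+CGP than in ASP and the 7 called in the interaction were counted as 7 without any one array. Genes called lower in ASP than in CON numbered 0 to 1 over the same omissions, the 1 being Gria3 without the second ASP array. With no fold minimum, 1 gene was lower in ASP than in CON, and 2 were higher and 3 lower in ASP+CGP than in CON and likewise than in CGP. With a minimum of 1.8-fold, or after cyclic loess, 0 were lower in both of these, against 1 in each as reported. Grik5, at 1.57-fold in ASP against CON, lost its call at the 1.8-fold minimum. Cyclic loess moved the median of all genes by 0.11 in ASP against CON and by 0.16 in ASP+CGP against CON and against CGP. It moved the share of calls that were higher to 80.1% from 54.7% as reported in ASP against CON, to 58.1% from 42.3% in ASP+CGP against CON, to 19.4% from 32.9% in ASP+CGP against ASP and to 23.4% from 36.7% in the interaction. The cause was not tested. The reported fit did not pair arrays by replicate number. Same-numbered arrays deviated together (r over 0.1) in 8 of 18 pairs, with r from -0.15 to 0.379. Differently numbered arrays were not compared, so whether same-numbered arrays share an effect was not tested. With the replicate number as a block, 7 genes were again called higher in ASP than in CON, and no count of calls among the receptor genes changed. A fit on only the arrays of a contrast could not be made for the interaction.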
